A study of Mus musculus with 2 samples.

Results

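The protein kinase C family was followed through RNA of type 5 bipolar cells of the mouse retina, as the 8 genes Prkca, Prkcb, Prkcd, Prkce, Prkch, Prkcq, Prkci and Prkcz. The genes were chosen by symbol from a table of 32813 gene symbols, and all 8 had a row. Type 5 cells are cone bipolar cells that respond to light increments. The cells came from the Htr3a-GFP line, whose GFP reports activity of the Htr3a promoter, and were sorted by fluorescence from dissociated retina. The series holds 1 group, with replicate 1 and replicate 2 as its 2 total RNA libraries, and the submitters call them biological replicates. The sources used here name no treatment and do not give age, sex, strain background, the sort gate or the number of animals per library. Levels are in TPM (transcripts-per-million units), which divide reads by transcript length, so genes can be set side by side. How deeply each library was read is unknown, because TPM does not keep it.

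Protein kinases C are serine and threonine kinases that carry signals from membrane lipids. Classical members (PKC alpha and PKC beta here) need calcium and diacylglycerol, the lipid that phospholipase C releases from the membrane. Members of the diacylglycerol-only class (PKC delta, epsilon, eta and theta) need diacylglycerol but not calcium. Atypical members (PKC iota and zeta) need neither and act with partners such as the PAR polarity proteins. In the retina, antibodies to PKC alpha are the usual stain for rod bipolar cells, where the kinase shapes the time course of the light response.

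The sorted cells held RNA of 4 members at similar, moderate levels, whereas Prkca was low. Of the 4, 1 came from each of the classical and atypical classes and 2 from the diacylglycerol-only class. Prkcq, the gene of PKC theta and best known from T cell receptor signalling, stood highest, with 74.8 TPM in replicate 1 and 51.3 in replicate 2 (mean 63.0 ± 16.6, SD, n = 2). It was the leading member in each library, and its mean TPM had rank 2801 of the 32813 symbols. Prkci, the gene of PKC iota, stood at 59.1 and 43.3 TPM (mean 51.2 ± 11.1). Prkce, the gene of PKC epsilon, stood at 53.6 and 45.7 TPM (mean 49.6 ± 5.52), the smallest ratio between the libraries among the 7 members above 0. Prkcb, the gene of PKC beta and the main classical member here, stood at 34.8 and 45.4 TPM (mean 40.1 ± 7.55). These 4 genes together made up 85.6% of the summed TPM of the family in replicate 1 and 92.4% in replicate 2.

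The other 4 members were lower or differed more between the libraries. Prkcz, the gene of PKC zeta, had 28.2 TPM in replicate 1 and 7.44 in replicate 2 (mean 17.8 ± 14.7, SD, n = 2). Prkca had 4.10 and 7.30 TPM (mean 5.70 ± 2.26). Prkcd, the gene of PKC delta, had 5.10 TPM in replicate 1 and 0.53 in replicate 2 (mean 2.81 ± 3.23). Prkch, the gene of PKC eta, was listed at 0 in both libraries. A listed 0 needs care in this table, since Rps27, a ribosomal protein gene that all cells use, was listed at 0 and at 838 TPM.

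**Figure D1:**
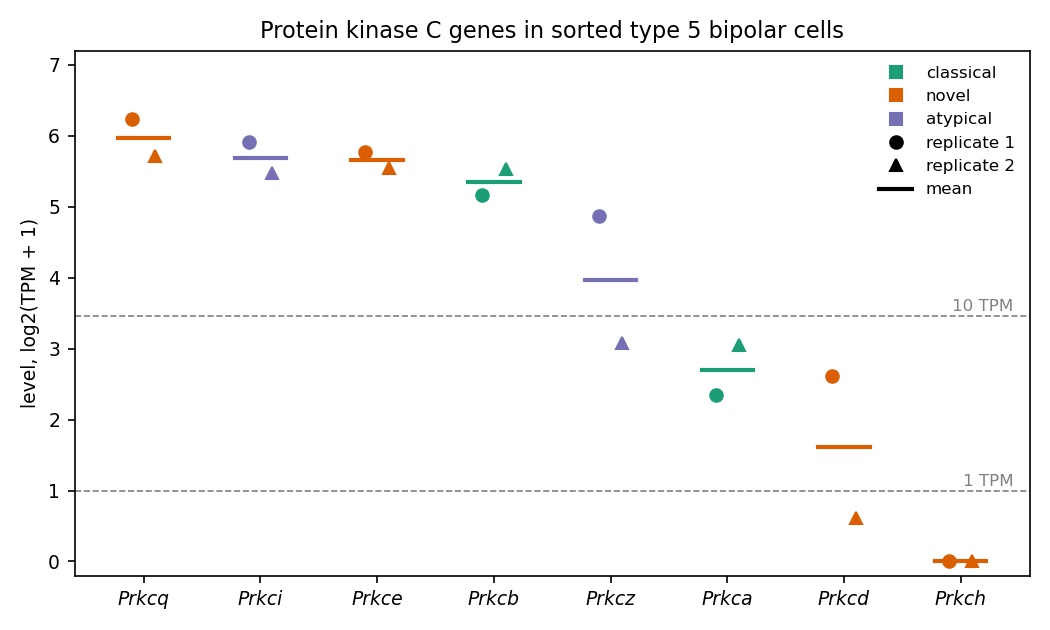
Levels of the 8 protein kinase C genes as log2(TPM + 1), ordered by mean TPM, with circles for replicate 1, triangles for replicate 2, bars for the mean and colours for the classes. Prkcq, Prkci, Prkce and Prkcb lie between 34.8 and 74.8 TPM in both libraries, and Prkca lies under the dashed line at 10 TPM in both.

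The order of the levels was mostly shared by the libraries, with Prkcq first in both, while the order of Prkci, Prkce and Prkcb was not. Of the 28 pairs of members, 25 had the same order in both libraries, and the 3 others were Prkci with Prkcb, Prkci with Prkce and Prkca with Prkcd. The range of Prkcq, down to 51.3 TPM, lay above that of Prkcb, up to 45.4 TPM. The ranges of Prkcq and Prkci overlapped, as did those of Prkcq and Prkce and of Prkci and Prkce. Prkce and Prkcb did not overlap, but only narrowly, with a lowest Prkce value of 45.7 TPM and a highest Prkcb value of 45.4 TPM. In replicate 2 these 2 genes differed by 0.01 on the log2(TPM + 1) scale, where genes of 10 to 100 TPM on average, 8216 in number, had a single-library SD of 0.85. Prkcz and Prkca likewise touched, at 7.44 and 7.30 TPM in replicate 2, and were 2.52 log2 units apart in replicate 1. No test was made between members or between libraries, because a permutation test over 2 libraries cannot give a two-sided p under 0.5.

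On the log2(TPM + 1) scale, each level was tested against a line of 1 TPM and a line of 10 TPM in limma, fitted over the 19968 genes above 0 in either library. Of all these genes 55.5% were called above 1 TPM and 32.4% above 10 TPM (one-sided test, with the Benjamini-Hochberg adjusted p below 0.05). Of the 8 members, 7 were above 0 and entered the fit, 5 were called above 1 TPM and 4 above 10 TPM. The 4 were Prkcq, Prkci, Prkce and Prkcb. Prkcz was above 1 TPM (limma, adjusted p = 1.32e-06) but not above 10 TPM (adjusted p = 0.496), and it missed the 1 TPM line when genes listed at 0 in both libraries were included in the fit (adjusted p = 0.0604). Prkcd was not above 1 TPM (limma, adjusted p = 0.343). The median level of the 8 members was 4.66 log2 units, with Prkch at 0 included, beside 3.22 for all genes in the fit. The fit took the spread of each gene from genes of like level, so the disagreement of Prkcz or Prkcd between the libraries did not itself enter its call. Without a test, 6 members had at least 1 TPM in both libraries, the 5 called genes and Prkca, beside 67.6% of the 19968 genes, and 4 had at least 10 TPM in both, beside 41.3%.

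In that fit the 95% intervals of the levels ran from 5.36 to 6.60 log2 units for Prkcq, from 5.03 to 6.35 for Prkci, from 4.99 to 6.32 for Prkce and from 4.63 to 6.07 for Prkcb. All 4 intervals overlapped one another. The interval of Prkcz, 2.78 to 5.17, reached into those of Prkce, Prkci and Prkcb, and stopped short of that of Prkcq. The interval of Prkca, 0.87 to 4.54, ended below those of the 4 leading members, by little for Prkcb. These intervals rest on the trend's SD, 0.45 to 0.52 for the 4 leading members and 1.33 for Prkca. For the 4 it was smaller than the single-library SD of 0.85 of genes of 10 to 100 TPM on average.

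By class, the 4 diacylglycerol-only genes held 51.4% of the family's summed TPM in replicate 1 and 48.5% in replicate 2. Nearly all of it came from Prkcq, with 28.8% and 25.5%, and Prkce, with 20.6% and 22.7%. The 2 atypical genes held 33.6% and 25.2%, of which Prkci made up 22.8% and 21.6%, and Prkcz 10.9% and 3.70%. The 2 classical genes held 15.0% and 26.2%, almost all from Prkcb, with Prkca at 1.58% and 3.63%. In replicate 1 the atypical share was above the classical share, and in replicate 2 the shares lay within 1 percentage point of each other. The summed level of the 8 genes was 260 TPM in replicate 1 and 201 TPM in replicate 2.

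**Figure D2:**
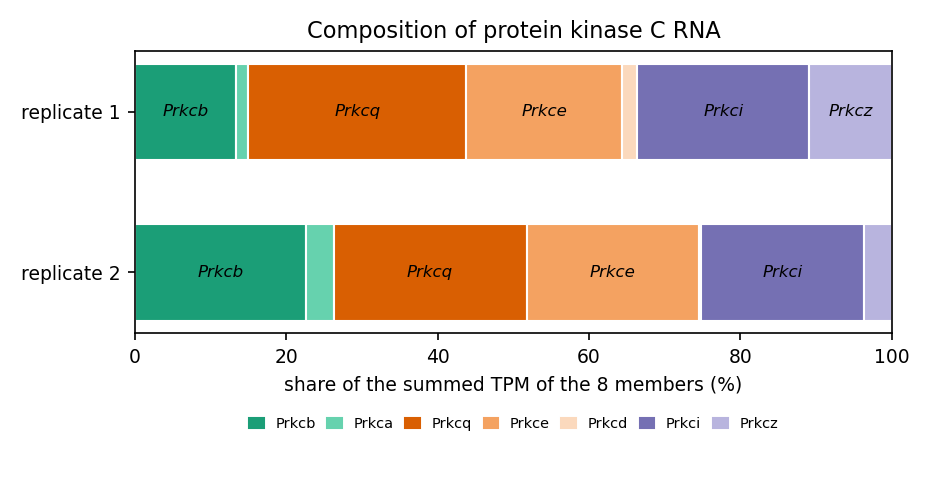
Share of the summed TPM of the 8 members held by each gene, in percent, with a bar per library. Greens mark the classical, oranges the diacylglycerol-only and purples the atypical class. Prkcq, Prkce and Prkci keep similar shares in both libraries, while the Prkcb share is larger and the Prkcz share smaller in replicate 2.

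Prkca was set beside the genes that mark the sorted cells and those that mark rod bipolar cells. Htr3a, the serotonin receptor gene whose promoter drove the sort marker, stood at 90.9 TPM in replicate 1 and 88.8 in replicate 2, which was 22.2 and 12.2 times the Prkca level. Kcng4, a potassium channel modifier gene of type 5 cells, had 229 and 326 TPM, or 48.6 times the Prkca level by the means. Cdh9, a cadherin gene of type 5 cells, had 133 and 117 TPM, or 21.9 times. Sox6 (136 and 115 TPM) and Lrrtm1 (90.5 and 110 TPM), also on the list of type 5 genes, were above Prkca too. The others on that list, Slitrk5 (0.55 and 2.15 TPM) and Chrm2 (0.08 and 1.15 TPM), lay below Prkca in each library. Lrrtm1 and Slitrk5 were chosen for naming after their values were seen. Prkcb stood at 8.48 and 6.22 times the Prkca level, and Prkcq at 18.2 and 7.03 times. Prkca missed the 1 TPM line in the fit (limma, adjusted p = 0.0616) and passed it in 6 of the 8 other limma settings, so its side of that line depends on the setting. It was at or over 1 TPM in both libraries and was not called above 10 TPM in any setting.

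Of 5 other genes of rod bipolar cells, Tpbg, Vstm2b, Car8 and Sebox lay near or below Prkca, and Rpa1 lay above it. Tpbg, which encodes a membrane glycoprotein of rod bipolar cells, had 6.42 and 5.09 TPM, Vstm2b had 2.16 and 5.95, and Car8 had 3.03 and 4.47. Sebox, a homeobox gene, was listed at 0 and at 4.57 TPM. Rpa1, a gene of DNA replication and repair that other cells use too, was the 1 of 5 called above 1 TPM, with 33.3 and 46.7 TPM. The summed level of the 5 genes was 44.9 TPM in replicate 1 and 66.8 in replicate 2, and that of the 4 without Rpa1 was 11.6 and 20.1. Among the 5 genes, 4 were higher in replicate 2, Sebox through a listed 0 in replicate 1, and Tpbg was higher in replicate 1. The median difference of the 5 (replicate 2 minus replicate 1) was 0.48 log2 units, beside -0.20 for all genes above 0. Whether the Prkca RNA came from type 5 cells or from rod bipolar cells in the sort was not tested, and in bulk RNA fewer cells of a type and less RNA per cell cannot be told apart.

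The labelled cell type was checked against lists of marker genes. The counts above the 1 TPM line stand beside 55.5% of all genes in the fit. Of 7 type 5 genes 5 were above 1 TPM, of 8 genes of ON bipolar cells all 8 were, and of 6 genes of OFF bipolar cells 0 were by limma, with 1 at an unadjusted p under 0.05 and 3 at or over 1 TPM in both libraries. Rod photoreceptor genes summed to 1600 TPM in replicate 1 and 1649 in replicate 2, with 8 of 10 above the line. Cone photoreceptor genes summed to 189 and 43.7 TPM, with 2 of 8 above the line. Muller glia genes summed to 188 and 403 TPM (6 of 8 above the line), amacrine genes to 60.4 and 95.3 (2 of 9) and ganglion cell genes to 31.8 and 73.0 (1 of 7). Microglia and vascular lists, 5 and 4 genes, had 0 called by limma, 0 at an unadjusted p under 0.05, and 1 gene each at or over 1 TPM in both libraries. Calb2, Chat, Nefm, Sncg, C1qa, Cldn5 and Pdgfrb were listed at 0 in both.

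Between the libraries, the classical genes were higher in replicate 2 and every other member above 0 was higher in replicate 1. Over all genes above 0 the median difference was -0.20 log2 units, and mitochondrial transcripts made up 17.3% of replicate 1 and 24.6% of replicate 2. The differences (replicate 2 minus replicate 1) were 0.70 for Prkca and 0.38 for Prkcb, against -0.22 for Prkce, -0.44 for Prkci and -0.53 for Prkcq. They did not stand out, since between 18.5% and 43.9% of genes in the same range of mean TPM (1 to 10 for Prkca, 10 to 100 for the others) differed by less. With genes of the mitochondrial genome and ribosomal RNA left out and TPM rescaled, the sign of each member's difference stayed as it was.

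Prkcz and Prkcd differed more. Prkcz was 3.79 times higher in replicate 1, a log2 difference of -1.79, and 90.4% of genes with a mean of 10 to 100 TPM differed by less. For Prkcd the ratio was 9.62 and the log2 difference -1.995, with 76.0% of genes at 1 to 10 TPM differing by less. The summed cone photoreceptor genes were 4.33 times higher in replicate 1, with 7 of 8 genes higher there. Gnat2 (86 and 23.3 TPM) and Gngt2 (83.05 and 12.3 TPM) made up most of that sum, and no other gene of the list exceeded 8 TPM. The summed Muller glia genes were 2.14 times higher in replicate 2, with 7 of 8 higher there. Vim, at 0.20 and 119 TPM, had a large part in that rise. The median difference was -1.29 log2 units for the cone list and 1.06 for the Muller glia list, beside -0.20 for all genes above 0. The part of these cell types in the Prkcz and Prkcd values was not tested.

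**Figure D3:**
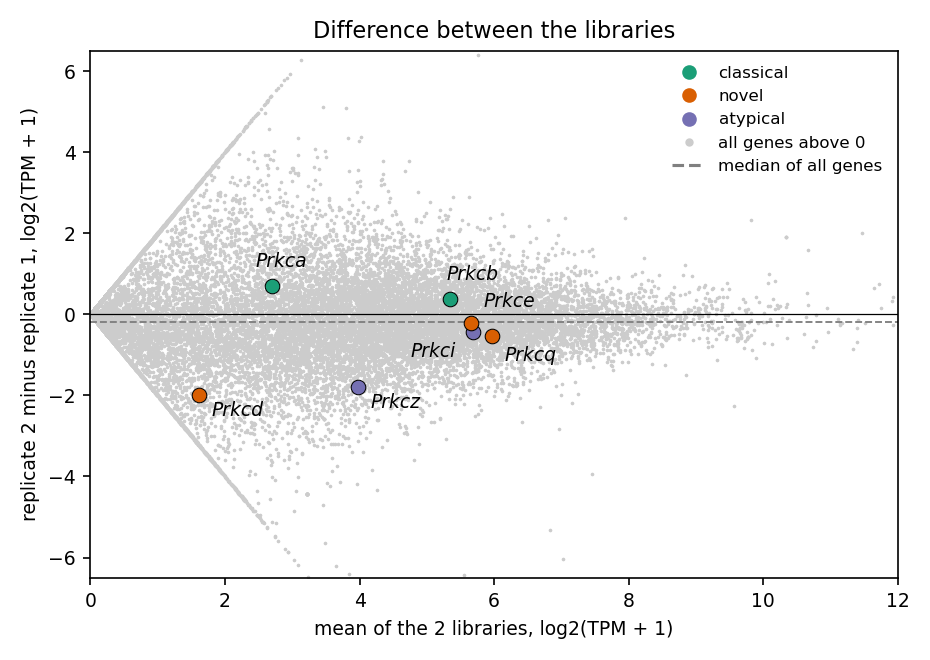
Difference between the libraries (replicate 2 minus replicate 1, log2(TPM + 1)) against the mean of both for genes above 0, with the members coloured by class, the median of all genes dashed and 22 genes outside the axes. Prkcz and Prkcd lie at -1.79 and -1.995, and the other members within 0.70 of 0.

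The annotation bears on how far single members can be read. In GENCODE M21 on GRCm38, the build also called mm10, all 8 genes are protein-coding. On the plus strand are Prkcq (chromosome 2, 11172108 to 11301222), Prkci (chromosome 3, 30995747 to 31052959), Prkce (chromosome 17, 86167785 to 86657919), Prkcb (chromosome 7, 122288751 to 122634402) and Prkch (chromosome 12, 73584796 to 73778185). On the minus strand are Prkca (chromosome 11, 107933387 to 108343928), Prkcd (chromosome 14, 30595354 to 30626210) and Prkcz (chromosome 4, 155260129 to 155361361). Which exons were read cannot be seen from a value per gene.

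The value of Prkcz is open to doubt from the annotation and from the assignment of reads. The gene has 10 annotated transcripts, 5 of them coding. The coding transcripts start near 155361361 or near 155345772, and in brain an internal start is known to give PKM zeta, a form with the kinase domain but without the regulatory part. The table adds these forms into 1 value. A processed pseudogene, Prkcz2 on chromosome 7 from 27882755 to 27884510, matches the longest Prkcz coding transcript at 98.7% identity over 1421 aligned bases. No row of the TPM values carries the symbol Prkcz2, and the sources used here do not say how reads that match both were assigned. For the other 7 members no annotated transcript of another gene matched at 90% identity or more over at least 200 bases.

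Antisense genes overlap some members, and the sources used here do not say whether counting used strand. Across from Prkca lie Gm11655, at 1.19 TPM in replicate 1 and listed at 0 in replicate 2, and Gm11657 and Apoh, both listed at 0 in both libraries. Across from Prkce lies Gm10309, at 2.65 and 0.11 TPM, far under the 53.6 and 45.7 TPM of Prkce.

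Sequences at the starts of the highest member and of the rod bipolar stain gene are shown because these genes differ 11.1-fold in mean TPM while both starts are rich in CpG, the dinucleotide that marks many broadly used promoters. Each window spans 250 bases before to 50 after an annotated start (RefSeq, GRCm38.p6), and 6 of the 8 members had 9 such windows. Capitals mark the GC box, GGGCGG or its reverse complement CCGCCC, to which SP family factors bind. The Prkcq window is chr2:11172132-11172431 on the plus strand, and the Prkca window chr11:108343839-108344138 on the minus strand. RefSeq and GENCODE differ on the Prkcq start, and the Prkcq window lies wholly inside the gene as GENCODE places it, from 11172108.
Prkcq: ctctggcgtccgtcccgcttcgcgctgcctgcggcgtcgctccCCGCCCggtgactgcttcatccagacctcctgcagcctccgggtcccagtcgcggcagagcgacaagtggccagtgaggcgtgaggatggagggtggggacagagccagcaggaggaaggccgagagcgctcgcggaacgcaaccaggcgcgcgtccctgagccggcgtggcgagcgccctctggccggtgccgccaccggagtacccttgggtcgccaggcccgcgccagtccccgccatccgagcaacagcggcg
Prkca: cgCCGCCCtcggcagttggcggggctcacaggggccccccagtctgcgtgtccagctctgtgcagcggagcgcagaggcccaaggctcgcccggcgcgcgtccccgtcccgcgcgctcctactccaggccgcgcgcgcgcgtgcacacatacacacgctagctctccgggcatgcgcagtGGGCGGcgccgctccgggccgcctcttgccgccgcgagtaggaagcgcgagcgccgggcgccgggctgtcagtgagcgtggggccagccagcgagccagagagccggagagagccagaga
The Prkcq window holds 37 CpG at 73.0% GC, and the Prkca window 42 CpG at 75.3% GC, against medians of 7 CpG and 52.7% GC over 32851 windows. The GC box was found 1 time in Prkcq and 2 times in Prkca, and in 35.7% of all windows. None of the 9 windows held TAATCC or GGATTA, the core that OTX2 and CRX bind, which 7.06% of all windows hold on either strand. The libraries measured RNA and not promoter use, so these windows are a description.

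Genes that act with protein kinase C were described in 8 lists, 86 genes in all, of which 57 were above 1 TPM and 36 above 10 TPM by limma (55.5% and 32.4% of all genes in the fit). List medians below are levels in log2(TPM + 1) with genes listed at 0 included, beside 3.22 for all genes above 0.

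Upstream, 1 phospholipase and 1 G protein dominated. Of 16 genes of Gq proteins and phospholipase C, 8 were above 1 TPM and 3 above 10 TPM, with a list median of 2.68. Plcb4, a phospholipase C driven by Gq, had 446 TPM in replicate 1 and 225 in replicate 2 (mean 336 ± 157, SD, n = 2). Gnaq, the gene of the Gq alpha subunit, had 179 and 154 TPM. Both were far above the other members of the list, of which Plcd1 came next with 18.8 and 38.7 TPM and Plcg1 after it with 18.4 and 20.0 TPM. The Plcb4 relatives Plcb1 (0.23 and 0.18 TPM) and Plcb2 (0.65 TPM and listed at 0) were near 0, and Plcg2 was listed at 0 and at 0.21 TPM. Plcb3, a further relative, had 5.55 TPM in replicate 1 and 0.05 in replicate 2.

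Of 12 genes of enzymes that use up diacylglycerol, 10 kinases and 2 lipases, 11 were above 1 TPM and 6 above 10 TPM, with a median of 4.43. Diacylglycerol kinases end the lipid signal by phosphorylating it, and the leading ones were Dgki with 38.9 and 151 TPM, Dgkz with 54.9 and 128, Dgkd with 79.7 and 55.6 and Dgke with 32.4 and 23.0. Dgki and Dgkz were higher in replicate 2, and Dgkd and Dgke in replicate 1, so the order among them is not fixed by 2 libraries. Dgkb had 5.34 and 6.52 TPM, and Dgkk was listed at 0 in both.

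Newly made protein kinase C is folded by chaperones and primed by phosphorylation, and phosphatases reverse this. All 11 genes of that list were above 1 TPM and 8 above 10 TPM, with a median of 4.87. The chaperone genes Hsp90aa1 (530 and 520 TPM) and Hsp90ab1 (341 and 481 TPM) led. Pdpk1, the kinase of the activation loop, stood at 92.9 and 79.9 TPM, and Mapkap1, a subunit of mTOR complex 2, at 37.6 and 64.3. Mlst8, another subunit of that complex, was among the lowest at 12.3 and 17.7 TPM.

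Of 8 anchors and adaptors 7 were above 1 TPM and 5 above 10 TPM, with a median of 6.37. Ywhaz, an adaptor that binds phosphorylated proteins, had 1022 and 1038 TPM. Gnb2l1, now called Rack1, which encodes a receptor for activated protein kinase C, had 396 and 201 TPM. Ywhag had 116 and 171 TPM, and Akap9, an anchor at the Golgi, 165 and 120. Pick1, whose protein was named for its binding to PKC alpha, had 64.9 and 34.7 TPM and was chosen for naming after its values were seen. Akap5 stood at 8.69 and 6.06 TPM, and Prkcdbp, now called Cavin3, was listed at 0 and at 0.22 TPM.

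Levels of the partners of the atypical members ran from high to near 0, with several genes in between. Of 13 genes 6 were above 1 TPM and 4 above 10 TPM, with a median of 2.72. Sqstm1, a scaffold that binds atypical protein kinase C, had 235 and 171 TPM, and Cdc42, the small GTPase of the PAR complex, 191 and 184. Pard6a stood at 35.5 and 28.5 TPM and Pard3 at 29.6 and 20.3, which lay below the 59.1 and 43.3 TPM of Prkci in each library. The lowest were Crb2 at 0.43 and 0.36 TPM and Wwc1 at 0.10 TPM and listed at 0.

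Of 11 genes of known substrates 5 were above 1 TPM and 3 above 10 TPM, with a median of 2.77. With a pseudocount of 0.1, or with TPM rescaled without mitochondrial and ribosomal RNA, 8 were above 1 TPM. Snap25, a vesicle fusion protein gene, had 2313 and 1712 TPM. Add1, the gene of an adducin of the membrane skeleton, had 70.6 and 71.9 TPM, and Marcksl1 had 9.48 and 44.1. Gap43 (0.95 and 22.9 TPM) and Marcks (0.88 and 19.5 TPM), classic substrates bound to the plasma membrane and chosen for naming after their values were seen, were not above the line. Both were higher in replicate 2, as was the sum of every cell type list except those of ON bipolar cells and cone photoreceptors. The part of other cell types in these values was not tested. Add2 had 1.71 and 1.42 TPM, and Nrgn, the gene of neurogranin, was listed at 0 in both libraries.

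Diacylglycerol also binds C1 domains of proteins other than protein kinase C, and 3 of these genes exceeded every member within each library. Of 12 such genes 7 were above 1 TPM and 5 above 10 TPM, with a median of 3.81. The vesicle priming genes Unc13b (213 and 185 TPM) and Unc13a (153 and 55.8 TPM) led, whereas Unc13c had 0.40 and 1.48. The chimaerin genes Chn1 (95.9 and 59.7 TPM) and Chn2 (52.4 and 93.0 TPM), which act on the small GTPase Rac, came next. Unc13b, Unc13a and Chn1 each exceeded Prkcq within each library, and Chn2 did so in replicate 2. Of the protein kinase D genes, whose products are activated by protein kinase C, Prkd3 had 40.0 and 14.6 TPM, Prkd1 31.2 and 14.2, and Prkd2 5.31 and 11.7. The Ras activators Rasgrp1 (0.36 and 3.46 TPM), Rasgrp2 (2.03 and 1.39), Rasgrp3 (3.03 and 1.5) and Rasgrp4 (1.34 and 0.16) were not called above 1 TPM. Of the protein kinase N genes, relatives of protein kinase C, Pkn2 had 26.4 and 21.7 TPM and was called above 10 TPM, and Pkn3 had 0.75 and 0.05.

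**Figure D4:**
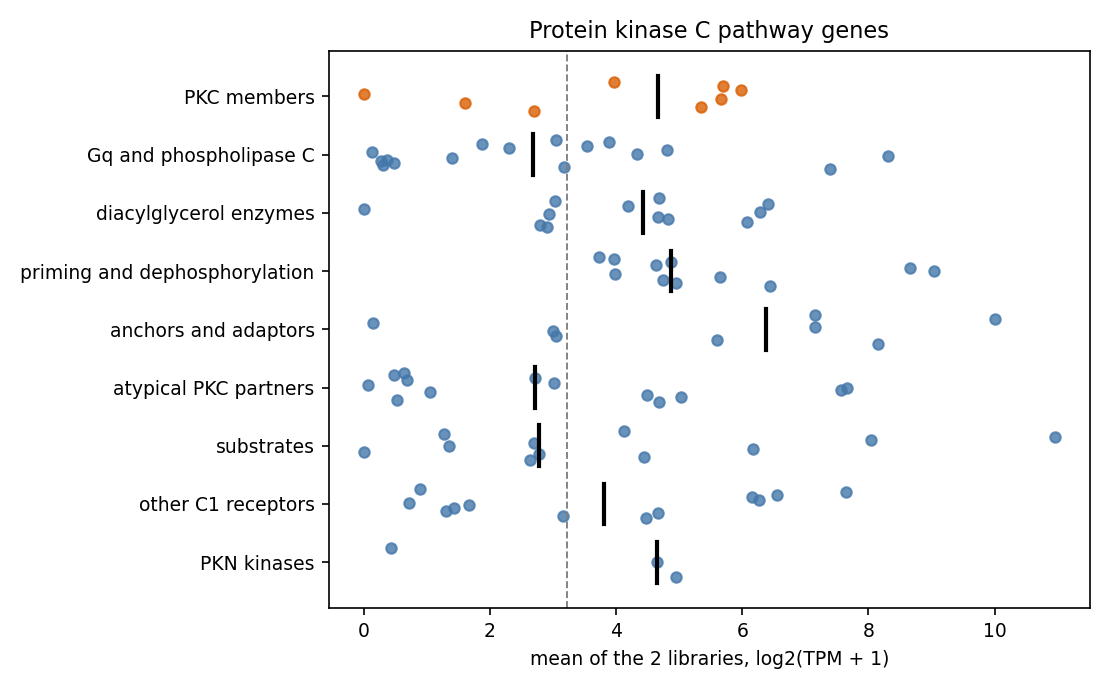
Levels of the members and of the genes of the 8 pathway lists, as the mean log2(TPM + 1) of the libraries, with a point per gene, a black bar at each list's median and a dashed line at 3.22, the median of all genes above 0. The anchors and adaptors have the highest median, 6.37, and the Gq and phospholipase C genes the lowest, 2.68, though Plcb4 and Gnaq stand far above it.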

How the data were processed

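Sorted type 5 bipolar cells gave 1 group of 2 libraries, compared with no other group. The authors deposited TPM values in 1 table. TopHat2 2.0.10, RSEM 1.2.28 and the mm10 build appear in the submitters' processing notes without a stated role, and the sources used here do not give the annotation, filters or strand setting. The header of replicate 1 misspells Htr3a and was matched through its number. Since TPM includes mitochondrial RNA, more of it lowers every other value.

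Values were used as log2(TPM + 1), with a pseudocount of 1. R 4.3.3 with limma 3.58.1 fitted an intercept with a variance trend over the 19968 genes above 0. The prior for the variance was infinite (19968 total degrees of freedom), so each gene took the trend's spread. P-values thus rest on the spread between these 2 samples over genes of like level, not on a gene's own difference. The fit was tested on simulated data. Python 3.11.15 with pandas 2.3.3 and matplotlib 3.10.9 was used, and minimap2 for copies.

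The members, lists and naming rule were chosen with earlier results of these data known. Named are all members, up to 4 genes of highest and 2 of lowest mean TPM per pathway list, and every gene of the C1, protein kinase N and rod bipolar lists. A few of these are left out of the text as not reported here. Symbols of 2 genes were matched through RefSeq synonyms. With 2 libraries, no gene of like pattern could be named.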

Additional observations from a re-analysis of the deposited data

How the results depend on the processing

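Levels were recomputed with pseudocounts of 0.1 and 0.5, other gene filters, no variance trend, a robust prior, rescaled TPM and quantile normalization, and in each library alone. Across the limma settings the count of members above 1 TPM stayed between 4 and 6 and that above 10 TPM at 4. Prkca passed the 1 TPM line in 6 of 8 other limma settings, with limma's adjusted p from 0.009 to 0.0367, and missed it with quantile normalization (adjusted p = 0.0523) and with genes listed at 0 in both libraries included (adjusted p = 0.228). Prkcz also missed it in the latter fit (limma, adjusted p = 0.0604). Rescaling without mitochondrial and ribosomal RNA raised the median gene by 0.25 log2 units in replicate 1 and 0.37 in replicate 2 and moved the summed TPM of the members from 230 to 290.

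The substrate count above 1 TPM was 8 of 11 with a pseudocount of 0.1 and 8 with rescaled TPM, in place of 5. In each library alone, without a test, members at or over 1 TPM numbered 6 to 7 and at or over 10 TPM 4 to 5. Substrates at or over 1 TPM numbered 7 to 10, atypical partners 8 to 10 and other C1 receptors 10 to 11. Without replicate 1 or replicate 2 no fit was possible. No paired analysis was possible because the series has 1 group.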
